A study of Mus musculus with 12 samples.

Results

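The probes described here are the 10 mouse oligonucleotides on the array whose own sequence reads, in a sense frame, as histone H4, of 35852 mouse probes in all and of 26502 that were tested. They were chosen by their sequence, and the family was put forward with the comparisons of both knock-ins with control already known, so its values in those comparisons are given as a description. Each of the 10 probes is a single spot of 60 bases. All 10 passed the filter on dim signals, with Cy3 well above background in 120 of 120 readings, no saturated reading and no reading marked as an outlier.

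The study measured spleen RNA of C57BL6 mice, kept free of specific pathogens, in 3 groups of 4 arrays: a knock-in of human TREX1 with the V235fs mutation (Trex1 V235fs KI), a knock-in with the D272fs mutation (Trex1 D272fs KI), and a control group labelled only as C57BL6. TREX1 is a DNA exonuclease that removes DNA from the cytosol. V235fs is known from RVCL (retinal vasculopathy with cerebral leukodystrophy), a disease of small vessels, and D272fs from a patient with lupus. Both knock-ins are described as conditional. The labels used here do not name the recombinase or the cells it acts in, the age or sex of the mice, whether the controls carried a knock-in that was not expressed, or whether each sample was a mouse of its own. The errors below therefore measure the spread between samples, which may be technical. The files do not pair probes with gene names, so the tissue label could not be checked against spleen markers here.

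Each array carried spleen cDNA in Cy3 and a universal reference RNA in Cy5, and values are log2 ratios of Cy3 over Cy5, so 0 means that spleen and reference gave the same normalised signal. The V235fs arrays lay together on 1 slide and the D272fs arrays on another, each at positions 4, 3, 2 and 1 for replicates 1, 2, 3 and 4. The controls lay on 3 further slides, replicates 1, 2 and 4 at position 4 and replicate 3 at position 1. The 8 knock-in arrays share a scan day that no control has, the controls being split over 2 more. The scanner's Cy3 voltage was 374 on the knock-in arrays and 383 on the controls, and its Cy5 voltage 402 against 404 or 405. Slide, scan day, scanner voltage and knock-in therefore cannot be told apart. Negative control spots averaged 40.8 and 45.9 in Cy3 above local background on control replicates 2 and 3, and 19.8 to 23.8 on the other arrays. Between 69.2% and 74.9% of the mouse probes on an array had Cy3 well above background. The mean correlation of an array with the others of its group was 0.928 or more for 11 arrays and 0.865 for D272fs replicate 3. On that array the normexp model put the Cy3 background at −392, where the negative control spots had a mean of 21.9. On V235fs replicate 4 it put Cy3 at −21.6 and Cy5 at −61.2, where those spots had means of 20.4 and 5.54. With background taken from negative control spots D272fs replicate 3 reached 0.963. Several of the counts, medians and spreads that this choice moves, though not all, are given both ways.

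Histone H4 is a core histone: with H3 it forms the tetramer at the centre of the nucleosome, the spool on which DNA is wound. In mice the protein is encoded by a family of small genes, most of them in a histone cluster, that share the protein sequence and differ mainly at silent codon positions. Most of these genes are transcribed in S phase, when new chromatin is made, and their mRNAs end in a stem-loop in place of a poly(A) tail. RefSeq lists 13 such genes on GRCm38.p6, of which 11 are on chromosome 13, with H4c14 on chromosome 3 and H4f16 on chromosome 6. The primer used for reverse transcription is not given in the labels.

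The sequences show what the probes can and cannot separate. A group of 3 probes covers codons 5 to 23, counted from the start codon as 1. They are shown over the same 60 bases, 5′ to 3′, with capitals at the 17 positions where the 3 are not identical, 16 of them at the third base of a codon.
M400007082: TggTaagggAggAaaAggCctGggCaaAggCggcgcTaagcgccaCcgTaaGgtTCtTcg
M400007644: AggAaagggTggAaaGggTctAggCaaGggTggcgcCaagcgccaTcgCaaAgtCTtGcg
M400008874: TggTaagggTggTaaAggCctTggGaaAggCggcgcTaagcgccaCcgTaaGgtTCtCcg

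A pair of probes covers codons 8 to 26 and differs at the third base of 7 codons, in capitals.
M400008876: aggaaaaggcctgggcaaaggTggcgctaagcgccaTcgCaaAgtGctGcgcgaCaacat
M400008877: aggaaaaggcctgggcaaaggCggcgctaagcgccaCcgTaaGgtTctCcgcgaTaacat

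Another pair overlaps over 42 bases, M400007604 starting at codon 10 and M400008862 at codon 16, and differs at the third base of 4 codons, in capitals.
M400007604: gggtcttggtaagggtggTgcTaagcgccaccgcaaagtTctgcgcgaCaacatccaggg
M400008862: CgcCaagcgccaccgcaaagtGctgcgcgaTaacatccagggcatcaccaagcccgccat

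The last pair lies further downstream in the coding sequence, shares 59 bases when shifted by a base, and differs at 7 of them, always at the third base of a codon, in capitals.
M400007914: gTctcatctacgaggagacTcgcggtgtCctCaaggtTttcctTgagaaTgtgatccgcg
M400012321: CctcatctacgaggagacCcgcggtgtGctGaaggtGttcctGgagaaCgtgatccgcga

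The remaining probe begins 14 bases before the start codon, which is in capitals, and so is the member with sequence from outside the coding region.
M400006249: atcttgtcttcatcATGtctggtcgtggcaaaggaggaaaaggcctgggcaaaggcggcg

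Over the 28 pairs of members that overlap, identity in the overlap ran from 65.0% to complete, the latter over the 26 bases that M400006249 and M400008877 share, and 181 of the 187 differing bases were at the third base of a codon. GC content was 53.3% to 63.3%. Probes that share this much sequence are not independent readings of 10 genes. The first 25 bases of M400006249 were identical to the end of the RefSeq start window of H4c9 (GRCm38.p6, chromosome 13, 22041313 to 22041612, minus strand). The first 30 bases of M400008874 matched the end of that of H4c3 (chromosome 13, 23698409 to 23698708, minus strand) and the first 14 bases of M400007082 that of H4c6 (chromosome 13, 23551619 to 23551918, minus strand). The rest of each probe lies beyond the window and was not compared, and the other 7 probes had no match of 12 or more bases to the end of a window, so none is assigned to 1 gene here.

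All 10 H4 probes had a lower mean log2 ratio in V235fs than in control spleen, with log2 changes between −1.79 and −0.73, and all 10 had a lower mean in D272fs, with log2 changes between −1.29 and −0.54. In V235fs, 6 of the 10 passed the test over all probes (limma, Benjamini-Hochberg adjusted p under 0.05). Over all tested probes, 0.362% were called lower in that comparison. The 6 are M400007082, M400007644 and M400008874 of the codon 5 group, M400008876 and M400008877 of the codon 8 pair, and M400007914 from the downstream pair. In D272fs, 4 of the 10 passed, where 0.0415% of all tested probes were called lower, and these 4 calls were close to the threshold and were lost in most other settings. In spleen tissue, fewer cells that carry H4 mRNA and less H4 mRNA per cell cannot be told apart.

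The 6 probes called in V235fs had smaller spreads within that group (SD 0.16 to 0.23) than the other 4 members, though above the median SD of all tested probes, 0.12. M400007644 read 0.33, 0.01, 0.03 and −0.03 on V235fs replicates 1 to 4, 0.30, 0.23, 0.04 and 0.10 on the D272fs arrays, and 0.84, 0.79, 0.77 and 0.85 on the control arrays. Every knock-in array lay below every control array, and the controls spanned 0.09 on the log2 scale. The change was −0.73 (SE 0.09, 1.66-fold lower) in V235fs and −0.64 (SE 0.09, 1.56-fold lower) in D272fs. It is among the dimmer members, with a Cy3 spot signal of 2.61 to 8.14 times its local background. The added offset of 50 pulls such ratios toward 0 and narrows their spread. With an offset of 0 the V235fs change was −1.19 (SE 0.18, limma adjusted p = 0.0370). The D272fs change was then −1.02 (SE 0.18) and was not called.

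M400008874 read 0.39, 0.10, −0.03 and 0.01 in V235fs, 0.05, 0.03, 0.09 and 0.21 in D272fs, and 1.28, 0.73, 0.83 and 1.1 in control. Again both knock-in groups lay wholly below the controls. The SD was 0.25 in control and 0.08 in D272fs (n = 4 each), and 0.27 and 0.38 with background from negative control spots, where D272fs replicate 3 overlapped the controls. The change was −0.87 (SE 0.13) in V235fs and −0.89 (SE 0.13) in D272fs, so this member fell by nearly the same amount in both. It too is dim, at 2.75 to 10.9 times local background. With an offset of 0, neither its V235fs change (−1.30, SE 0.25) nor its D272fs change (−1.37, SE 0.25) was called.

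M400007082, the last probe over codons 5 to 23, read 0.22, −0.19, −0.16 and −0.27 in V235fs, 0.30, 0.20, 0.12 and 0.01 in D272fs, and 1.13, 0.86, 0.70 and 1.03 in control. All knock-in arrays were below all controls. The V235fs change was −1.03 (SE 0.12) and was called. The D272fs change was −0.77 (SE 0.12) and was not called, at an adjusted p of 0.0569 in limma.

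The codon 8 pair behaved much as the codon 5 group. M400008876 read 0.28, −0.11, −0.16 and −0.23 in V235fs, 0.11, 0.17, 0.18 and −0.05 in D272fs, and 1.02, 0.92, 0.72 and 1.31 in control. M400008877 read 0.01, −0.47, −0.33 and −0.40 in V235fs, 0.10, 0.05, 0.08 and −0.14 in D272fs, and 1.01, 0.72, 0.51 and 0.79 in control. Neither probe's knock-in arrays reached its lowest control. The V235fs changes were −1.05 (SE 0.14) for M400008876 and −1.05 (SE 0.12) for M400008877, both called. The D272fs change of −0.89 (SE 0.14) for M400008876 was called and that of −0.74 (SE 0.12) for M400008877 was not, at a limma adjusted p of 0.0717.

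M400007914, from the downstream stretch, read 0.38, 0.01, −0.02 and −0.08 in V235fs, 0.28, 0.24, 0.20 and 0.18 in D272fs, and 0.95, 0.85, 0.77 and 0.86 in control. No knock-in array reached the lowest control. The SD was 0.04 among the D272fs arrays and 0.07 among the controls (n = 4 each), and 0.25 and 0.07 with background from negative control spots. It was 1.73-fold lower in V235fs (change −0.79, SE 0.10) and 1.55-fold lower in D272fs (change −0.63, SE 0.10), and was called in both.

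The other 4 members had larger mean changes in V235fs than the 6 called ones, with much wider spreads, and none was called. M400007604 read 0.42, −2.58, −2.41 and −1.96 in V235fs, −1.62, −1.93, 0.07 and −0.09 in D272fs, and −0.02, 0.10, −0.27 and 0.83 in control. V235fs replicate 1 and D272fs replicates 3 and 4 lay within or near the control range, and the other 5 knock-in arrays lay far below every control. Its change was −1.79 (SE 0.65) in V235fs and −1.05 (SE 0.65) in D272fs. The SD was 1.39 in V235fs, 1.03 in D272fs and 0.47 in control (n = 4 each), and the V235fs SD was larger than that of 99.9% of tested probes.

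M400006249, the probe over the start codon, read 0.31, −1.13, −1.18 and −1.01 in V235fs, −0.83, −1.02, 0.10 and −0.05 in D272fs, and 1.01, 0.57, 0.50 and 1.27 in control. The same 3 knock-in arrays were the high ones, yet here they too stayed below the lowest control. The change was −1.59 (SE 0.35, 3.01-fold lower) in V235fs, with a limma adjusted p of 0.0572, and −1.29 (SE 0.35) in D272fs.

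M400008862, which starts at codon 16, read 0.44, −0.91, −0.89 and −0.94 in V235fs, −0.38, −0.48, 0.29 and 0.04 in D272fs, and 0.70, 0.66, 0.43 and 1.08 in control. M400012321, the partner of M400007914 downstream, read 0.64, −0.88, −0.91 and −0.79 in V235fs, −0.21, −0.39, 0.64 and 0.28 in D272fs, and 0.49, 0.68, 0.47 and 0.83 in control. For both probes V235fs replicate 1 fell inside or at the edge of the control range while V235fs replicates 2, 3 and 4 lay close to one another. The changes were −1.29 (SE 0.30) and −1.1 (SE 0.33) in V235fs and −0.85 (SE 0.30) and −0.54 (SE 0.33) in D272fs. These are bright probes, M400008862 at 23.4 to 120.2 and M400012321 at 91.7 to 449 times local background.

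M400007914 and M400012321 have 52 of 59 bases in common and differ in this respect: the SD among V235fs arrays was 0.21 for the first and 0.75 for the second (n = 4 each). M400008862 and M400007604 likewise differ at 4 of 42 shared bases and both spread widely, whereas M400008876, which overlaps M400008862 over 36 bases with 3 differences, did not (SD 0.23 in V235fs against 0.68). The 4 wide probes were told apart from the 6 after their values were seen, and no difference between the sets was tested.

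In V235fs against control, 7 of the 10 probes had all 4 knock-in arrays below all 4 controls, the 6 called ones and M400006249; 7.09% of all tested probes did so. In D272fs against control, 8 of the 10 did, all but M400007604 and M400012321, where 4.88% of all tested probes did so. With background from negative control spots 6 did, M400008862 and M400008874 no longer among them, where 5.14% of all tested probes did so. The median change over the 10 was −1.05 in V235fs and −0.81 in D272fs, beside medians over all tested probes of 0.00 and −0.02. The adjusted p of the called members ran from 0.00639 to 0.0197 in V235fs and from 0.0372 to 0.0472 in D272fs (limma, Benjamini-Hochberg). In D272fs 8 members were lower at an unadjusted p under 0.05, as were 10.5% of all tested probes. Both comparisons use the same 4 control arrays, so they are not separate evidence.

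The 2 knock-ins were then set against each other. No H4 probe was called between V235fs and D272fs, where 0.00377% of all tested probes were called in either direction, and 1 H4 probe, M400008877, was lower in V235fs at an unadjusted p under 0.05 in limma, as were 4.53% of all tested probes. None of the 10 had V235fs arrays wholly below the D272fs arrays, against 2.29% of all tested probes. The V235fs mean was the lower one for 9 of 10 probes, M400008874 being the exception, and the median difference was −0.28, beside 0.02 over all tested probes. With background from negative control spots the V235fs mean was the lower one for all 10, the median difference was −0.40, and 3 members (M400007082, M400007914 and M400008877) were lower at an unadjusted p under 0.05, as were 7.33% of all tested probes, with none called. For M400008877 the difference was −0.32 (95% interval −0.59 to −0.04, limma adjusted p = 0.348). More of it lay in a higher Cy5 level, the reference (0.21), than in a lower Cy3 level (−0.11). The intervals were narrower for M400007644, from −0.28 to 0.12, and M400008874, from −0.26 to 0.30. With background from negative control spots they ran from −0.44 to 0.01 and from −0.57 to 0.24. For M400007604 the interval ran from −2.17 to 0.69. It took in a difference as large as that probe's V235fs change from control, −1.79.

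Array by array, the mean log2 ratio over the 10 probes was 0.34 on V235fs replicate 1 and −0.61, −0.61 and −0.57 on replicates 2, 3 and 4. On the D272fs arrays it was −0.19, −0.29, 0.18 and 0.05. On the control arrays it was 0.84, 0.69, 0.54 and 1.0. The lowest control stood above the highest knock-in array here, and not with background from negative control spots, where D272fs replicate 3 (0.59) lay above control replicate 3 (0.57). V235fs replicate 1 was the highest V235fs array for 10 of the 10 probes, a share not computed over all tested probes. It lay below the lowest control for 7 of them. For those 7 every V235fs array lay below every control, as for 7.09% of all tested probes. V235fs replicate 1 was singled out here after these values were seen. Without it all 10 probes were called lower in V235fs, with a median change of −1.16, where 1.55% of all tested probes were called lower. With V235fs replicate 2, 3 or 4 left out instead, 5, 4 and 4 members were called, with no share computed over all probes.

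Slide position was compared side by side. At position 4 stood V235fs replicate 1, D272fs replicate 1 and control replicates 1, 2 and 4. V235fs replicate 1 was below all 3 of those controls for 8 of 10 probes, as it was for 24.2% of all tested probes, and D272fs replicate 1 for 10 of 10, as for 30.9% of all tested probes. With only these 5 arrays the median H4 change was −0.58 in V235fs and −0.93 in D272fs, and no member was called in either, with the lone knock-in arrays taken to vary like the controls. At position 1 stood V235fs replicate 4, D272fs replicate 4 and control replicate 3, and 53.8% and 51.2% of all tested probes were lower on those knock-in arrays than on that control. V235fs replicate 4 was below that control for 10 of 10 probes, with differences between −1.68 and −0.79, and D272fs replicate 4 for 9 of 10, M400007604 being higher by 0.18. The high arrays of the 4 wide probes stood at position 4 in V235fs and at positions 2 and 1 in D272fs. With position as a fixed block the median change was −0.93 in V235fs and −0.61 in D272fs. In that fit 1 and 0 members were called, with no share computed over all probes, so these counts cannot be read as a result about H4.

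Within the controls, replicate 3 was the lowest array for 9 of 10 probes, a share not computed over all tested probes. Control replicate 3 shared its slide and its scan day with control replicate 2. The 10-probe mean was 0.92 over the 2 controls of one scan day and 0.62 over the 2 of the other. The control mean lay 0.83 above the D272fs mean (0.76 with background from negative control spots). No knock-in array shared a day with a control, so the control days cannot size a difference from the knock-in day. The part of scan day in the knock-in changes was not tested.

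The D272fs calls changed with the handling of replicate 3. With background taken from the negative control spots, the 10-probe mean on that array rose from 0.18 to 0.59, while on the other 3 D272fs arrays it stayed at −0.19, −0.29 and 0.05. On V235fs replicate 4 it moved from −0.57 to −0.63, and M400006249 there went from −1.01 to −1.31. On D272fs replicate 3, M400008874 went from 0.09 to 0.85 and M400007914 from 0.20 to 0.72. In that setting all 10 changes were still below 0 in D272fs, with a median of −0.73, and 2 members were called, M400007644 (adjusted p = 0.0282 in limma) and M400007082 (adjusted p = 0.0450), where 0.264% of tested probes were called lower. In V235fs 8 members were called, where 3.85% of tested probes were called lower. When D272fs replicate 3 was left out instead, 6 members were called lower in D272fs, where 0.0948% of tested probes were, and 8 in V235fs, where 2.57% were. The median D272fs change was then −0.83, beside −0.81 with all arrays.

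The lower ratios of the knock-ins against control lay mainly in the spleen channel. After both channels were put on a common scale, the Cy3 level of the 10 probes changed from control by −1.76 to −0.66 in V235fs and by −1.09 to −0.52 in D272fs on the log2 scale. The Cy5 level, which is the same reference RNA in every group, differed from control by −0.30 to 0.37 in V235fs and by −0.15 to 0.20 in D272fs. For M400007604, the Cy3 mean was 9.01 in V235fs, 9.78 in D272fs and 10.8 in control, and the Cy5 mean 10.6, 10.7 and 10.6. For M400006249, the Cy3 level changed by −1.22 in V235fs and the Cy5 level by 0.37, the largest Cy5 difference among the members. Between V235fs and D272fs the channels were mixed. M400008877 differed by −0.11 in Cy3 and 0.21 in Cy5, and M400007082 by −0.04 and 0.22. M400007914 differed by −0.30 in Cy3 and −0.14 in Cy5.

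The 10 probes followed each other across arrays. Over the 45 pairs of members, Pearson's r over the 12 arrays ran from 0.65 to 0.99 with a median of 0.89. After each group's mean was removed it ran from 0.32 to 0.97 with a median of 0.66. These are descriptions over arrays that share the group difference, and the overlapping probes share targets. M400008862 followed the mean of the other 9 most closely (r = 0.98) and M400007604 least (r = 0.86).

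Outside the family, the 5 tested probes whose ratios over the 12 arrays were most like the mean of the H4 probes were M400003665 (r = 0.97), M300002867 (r = 0.96), M400014011 (r = 0.95), M400009053 (r = 0.95) and M300000233 (r = 0.95), out of 26448 probes with a value on every array. All 5 had lower means in both knock-ins than in control. M400014011 went from 0.44 in control to −0.34 in D272fs and −0.64 in V235fs. M400003665 went from 0.21 in control to −0.16 and −0.29. As for the H4 probes, V235fs replicate 1 was above the other V235fs arrays for each of the 5, at −0.19 against −1.05 to −0.56 for M400014011. These probes have no gene name here and were picked for their likeness, so they say nothing more of the pattern.

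A further probe, M200009516, is not among the 10 but runs into the same start. Its first 27 bases precede a start codon, in capitals, after which its reading shares 11 residues with the members.
M200009516: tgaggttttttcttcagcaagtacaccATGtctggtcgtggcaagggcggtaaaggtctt

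It was singled out after its sequence was seen. M200009516 read −0.06, −0.63, −0.57 and −0.47 in V235fs, −0.37, −0.56, 0.00 and −0.06 in D272fs, and 0.02, −0.11, −0.08 and 0.05 in control. The high knock-in arrays, V235fs replicate 1 and D272fs replicates 3 and 4, were the same as those of the 4 wide members. The change was −0.40 (SE 0.15, limma adjusted p = 0.162) in V235fs and −0.22 (SE 0.15) in D272fs. Its signal was dim, and Cy3 was not well above background on V235fs replicates 2, 3 and 4, D272fs replicate 2 and control replicate 4.

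The start regions of H4 genes in RefSeq (GRCm38.p6) were read for 2 motifs on both strands in the 250 bases before the start. H4c14 had no window. The TATA box motif TATAAA was in 6 of 12 H4 windows and in 12.4% of all 32851 windows. These counts take a match anywhere in the 250 bases, so they do not count TATA boxes close to the start. Within the last 120 bases only H4c12 and H4c4 had TATAAA, at −16 and −32 from the transcription start. H4c9, H4c6 and H4c3 had no TATAAA within those 120 bases. Only the exact letters were searched, so variants of the motif were not counted and these genes are not said to lack a TATA box. GGTCCG, part of an element known from H4 promoters, was in 9 of the 12 and in 6.7% of all windows. The motif was known from these promoters beforehand, so its higher share among them is no result of these data. H4c1, H4c2 and H4c8 had no GGTCCG in this window. Shown are the last 120 bases before the start of the 3 genes whose windows matched the first bases of a probe, on the minus strand of chromosome 13, with GGTCCG in capitals. They span chr13:22041363-22041482 for H4c9, chr13:23551669-23551788 for H4c6 and chr13:23698459-23698578 for H4c3.
H4c9: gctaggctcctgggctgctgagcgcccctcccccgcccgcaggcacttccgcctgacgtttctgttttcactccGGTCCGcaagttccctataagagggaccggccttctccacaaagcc
H4c6: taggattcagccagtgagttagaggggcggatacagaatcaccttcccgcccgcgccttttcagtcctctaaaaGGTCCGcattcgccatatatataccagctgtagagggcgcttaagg
H4c3: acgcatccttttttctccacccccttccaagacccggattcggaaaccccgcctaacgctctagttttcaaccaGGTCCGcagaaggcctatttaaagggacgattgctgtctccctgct

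In each of the 3 the motif starts 46 bases before the transcription start. A match describes these letters only and was not set against the expression values, since the arrays give no reading of the promoters.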

How the data were processed

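RNA was measured on 12 two-colour arrays, 4 per group; groups and replicate numbers come from the sample titles. Per the file headers, Feature Extraction 11.5.1.1 made the deposited scanner files, which hold the mean intensity of each spot and the median intensity of its local background in both channels. Per the same headers, they hold the log10 of Cy5 over Cy3 after that software's own background and dye steps. The authors' value table matched those log10 values to within rounding, which fixed its scale and direction.

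The limma package (3.58.1, R 4.3.3) was used for normexp background correction (offset 50) and for loess within arrays, with the 1417 control and 184 other non-mouse spots at weight 0. Spots marked as outliers (114) were set missing and spots of a probe averaged. Probes with Cy3 well above background on at least 4 of 12 arrays and at least 2 values per group were tested (26502). The limma fit had a mean for each group over all 12 arrays (9 residual and 2.62 prior degrees of freedom), with Benjamini-Hochberg adjustment over all tested probes and a threshold of 0.05; intervals are 95%. The fit was tested on simulated data. Channel levels are after loess and Aquantile. The number of arrays limits the precision.

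The members, lists and alternatives were chosen with earlier results of these data known. The naming rule was all 10 H4 probes and the 5 other probes most like their mean. The planned gene lists, other histone families and cell type markers need gene names or proteins and were not run. Alternatives covered background, normalisation, filter, outliers, variance model, slide, scan day, position, replicate number, only the groups compared, and leaving out each array in turn.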

Additional observations from a re-analysis of the deposited data

Results flagged for a closer look

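Within a group of 4 arrays, 33 sets of values were examined for an array far from the other 3: the 10 probes and their mean, in each group. Chance marks about 1 set in 20, and the probes share targets, so the sets are not independent. In 5 sets, all in V235fs and all on replicate 1, the array stood apart. M400006249 read 0.31 there against −1.18 to −1.01 on the other 3 arrays. M400007644 read 0.33 against −0.03 to 0.03. M400008862 read 0.44 against −0.94 to −0.89. M400012321 read 0.64 against −0.91 to −0.79. The mean of the 10 probes was 0.34 against −0.61 to −0.57. Over all 26448 probes with a value on every array, 5.75% had an array that far apart in V235fs, and in 2.84% it was replicate 1. V235fs replicate 1 stood at slide position 4, where no other V235fs array stood. D272fs replicate 1 stood at position 4 too, with a 10-probe mean of −0.19, below D272fs replicates 3 and 4. With background from negative control spots the number of such sets was again 5.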

How the results depend on the processing

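In 32 other settings for each of the 10 probes, 319 of 320 V235fs changes and 319 of 320 D272fs changes stayed below 0. The exceptions were M400007604 in V235fs with slide position 4 alone (0.12) and M400012321 in D272fs with loess and scaling between arrays (0.31); the cause was not tested. The count called in V235fs, 6, became 3 (median centring), 1 (scaling between arrays), 10 (array weights), 1 (position block) and 0 (position 4 alone), and 4 to 10 with 1 array left out, 10 being without V235fs replicate 1. The D272fs count, 4, became 0 with an offset of 0, median centring, scaling, Agilent's log ratio, the authors' table, a random block for slide or for scan day, the position block, position 4 alone, or only the groups compared, 1 without background subtraction, 2 with negative control background and 8 with array weights. With an array left out it ran from 0 to 6, and it was 0 or 1 without any array other than V235fs replicate 1 and D272fs replicate 3. The D272fs calls thus depend on single arrays, and 8 members had an unadjusted p under 0.05, against 10.5% of all tested probes. The share of all tested probes called lower in V235fs was 0.362% in the main fit and 3.85% with negative control background. Without V235fs replicate 1 it was 1.55%. For array weights, the replicate block and the other settings with no share printed here it was not computed. A higher count of members there may therefore go with more calls over all probes. Median changes moved to −1.33 in V235fs with Agilent's log ratio or the authors' table and −0.58 at position 4 alone, and in D272fs to −1.04 (median centring) and −0.51 (scaling). Between the knock-ins the median moved to −0.51 with Agilent's log ratio or the authors' table and turned to 0.26 at position 4 alone, and array weights called 1 member, M400008877.

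Same-numbered samples did not deviate together (r from −0.51 to 0.35), so the labels' numbers were not taken as pairs. With replicate number as a replicate block, 4 members were called in V235fs and 0 in D272fs.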
